A study of Drosophila melanogaster with 2 samples.

Results

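Ada2b peaks were called at 1144 sites in introns, far from any start of a protein-coding gene, in *Drosophila melanogaster* embryos. They come from the authors' conservative list of 4797 peaks, 4796 of them on the main arms of the chromosomes. A peak was kept when its summit, the position of its highest signal, fell inside a protein-coding gene, in no coding sequence or UTR, and more than 2000 bp from the nearest protein-coding transcription start. These far intronic peaks were 23.9% of the main-arm peaks (95% Clopper-Pearson interval 22.7 to 25.1%), and their positions are given on the dm6 assembly. The samples were whole transgenic embryos of 0 to 18 h that carried an Ada2b-eGFP fusion, and anti-GFP antibody was used to precipitate chromatin sheared by sonication into pieces of 200 to 800 bp. The labels gave 2 biological replicates of 1 group, so no comparison between conditions could be made and no test was run. The sex of the embryos was not recorded, the labels also name Ada2b itself as the antibody's target, and the control precipitation was not analysed here. Because whole embryos of a wide age range were pooled, strong binding in few cells and weak binding in many cannot be told apart.

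Ada2b belongs to the SAGA complex, a coactivator of transcription, where it works with the acetyltransferase Gcn5 in the acetylation of histone H3. SAGA is best known from gene promoters, where it is brought in by activators and aids the start of transcription. Enhancers, the elements that set where and when a developmental gene is active, are often found in introns of *Drosophila* genes, and histone acetylation is a usual feature of them.

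The sequences under the summits show what these sites look like. The 29 bp about the summit are given, from 5′ to 3′ on the plus strand with the summit base in capitals, for the 5 strongest far intronic peaks that were found in both replicates and could be shown.
Tlk, chrX:3742203-3742231: tatatatacatcttAgttttaatcaagat
CG32486, chr3L:3060789-3060817: tagagagtcaataaGcaaaaccttgctta
osa, chr3R:17704405-17704433: gatcaagtcactcaTcaaaagactgaact
CHES-1-like, chrX:7707010-7707038: ttgaacatttaataTttaagctacaataa
Raf, chrX:2297705-2297733: ccgcaccaattctgCactattcacaagta
The windows of 100 bp on each side of all 1144 summits had a mean GC content of 34.9% (SD 6.28 over peaks). Windows of that length tiled through all sequence where a summit would have met the rule held 40.2% GC (SD 8.11, 200318 windows). The peaks near promoters (35.8%) and the peaks outside genes (36.0%) were about as poor in GC.

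Short words recurred beside the summits, and several of them had a direction. All 7-letter words were ranked by their share of the member windows over their share of the tiled windows, and 8 of the first 10 held CAGTG on either strand. The word was therefore chosen on these peaks, and its frequency in them is a description. CTCAGTG, the first in that ranking, where it is counted together with its reverse complement, stood in 121 of the 1144 windows on either strand, 10.6% (8.85 to 12.5%), against 1.78% of the tiled windows. The shorter CAGTG stood in 54.9% of the member windows and in 27.2% of the tiles, and it read both ways. At 40 to 110 bp from the summit it read outward at 399 far intronic peaks (34.9%) and inward at 264 (23.1%), against 11.0% and 10.9% of tiles. At peaks outside genes and over 2000 bp from a start it read outward in 38.7% and inward in 21.0%. At promoter peaks it read outward in 19.1% and inward in 24.0%, and at intronic peaks nearer to starts in 24.2% and 27.4%. At far intronic peaks CTCAGTG read mostly outward. Copies of CTCAGTG on both sides of a summit show the arrangement best. For 6 far intronic peaks with such a pair, 29 bp are given from 5′ to 3′ along the strand that carries the word, with the word in capitals.
Snoo, chr2L:7916431-7916459, minus strand: gcataattgatttttCTCAGTGtgttctg
Snoo, chr2L:7916572-7916600, plus strand: ttgcagatttttttgCTCAGTGcatgtca
gukh, chr3R:18995787-18995815, minus strand: tataaaatattttttCTCAGTGctggagt
gukh, chr3R:18995951-18995979, plus strand: cccatttgtttttggCTCAGTGtgatcct
Socs36E, chr2L:18145393-18145421, minus strand: aatatatggaattttCTCAGTGtagtcgt
Socs36E, chr2L:18145534-18145562, plus strand: aacgaaggcttttcgCTCAGTGcacctcg
kirre, chrX:3025631-3025659, minus strand: ttgttgagtttttctCTCAGTGcacgcat
kirre, chrX:3025770-3025798, plus strand: aggtcgacattatttCTCAGTGccccttg
side-III, chr3R:5871503-5871531, minus strand: gctcactgcgtttctCTCAGTGcacacac
side-III, chr3R:5871649-5871677, plus strand: ttgtcttgcgtttctCTCAGTGcatgtgg
spri, chrX:10564236-10564264, minus strand: taaacgatattttctCTCAGTGtgtctgc
spri, chrX:10564399-10564427, plus strand: agctctttatttttgCTCAGTGcaaagct
In each pair the copy on the minus strand lay to the left of the summit and the copy on the plus strand to the right, so both read outward. The pair at Snoo, which encodes a Ski-family corepressor, stood 73 and 76 bp from its summit. At kirre the copies stood 59 and 88 bp from theirs.

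Across the far intronic peaks, 124 (10.8%, 9.10 to 12.8%) had an outward copy of CTCAGTG 40 to 110 bp from the summit and 6 (0.524%, 0.193 to 1.14%) had an inward copy at that distance. In tiled windows the outward and inward shares were 0.638% and 0.663%. The median distance of copies within 150 bp on the outward side was 79.5 bp, with quartiles of 57.0 and 100 bp. In 12 far intronic peaks (1.05%) outward copies stood on both sides, against 0.00849% of tiles. Other words of the ranking had a direction of their own. CAGTGTA read outward in 116 peaks and inward in 9, while TACAGTG read outward in 10 and inward in 96, and ACAGTGG outward in 14 and inward in 112.

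**Figure D1:**
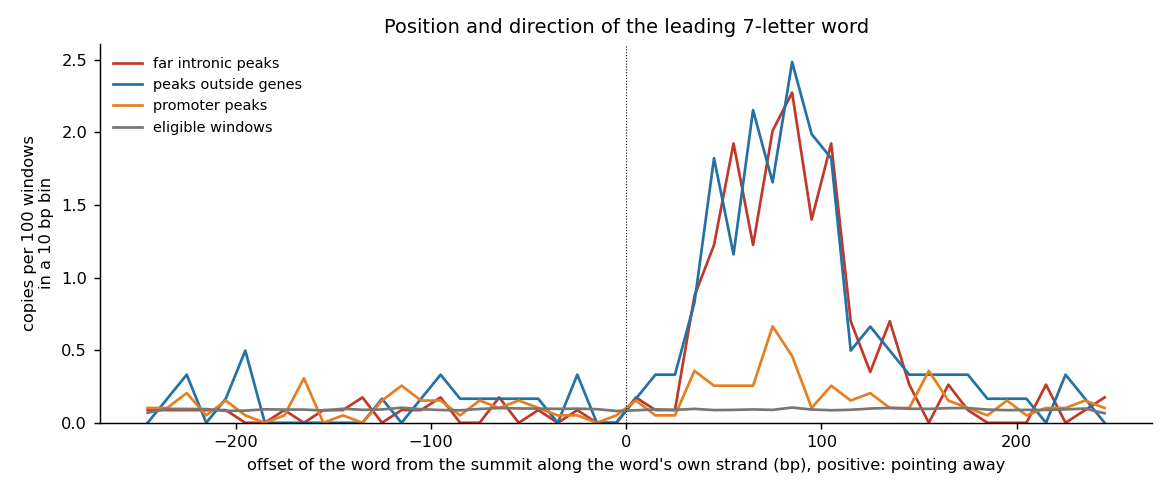
Copies of CTCAGTG per 100 windows in bins of 10 bp, by offset from the summit along the word's own strand, where positive offsets point away from the summit. Far intronic peaks and peaks outside genes have copies from about 40 to 110 bp on the outward side, promoter peaks have fewer, and the tiled windows are flat.

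The peak classes that were not used to choose the word held it too, as the plot of copies by offset shows. Outward copies stood at 69 of 604 peaks outside genes and over 2000 bp from a start (11.4%, 9.0 to 14.2%). They stood at 37 of 737 intronic peaks over 500 and up to 2000 bp from a start (5.02%, 3.56 to 6.85%) and at 43 of 1959 promoter peaks (2.20%, 1.59 to 2.95%), which are peaks within 500 bp of a start. In the replicates' own lists the share among far intronic peaks was 10.7% in replicate 1 (96 of 898) and 10.8% in replicate 2 (70 of 647). Those lists share libraries and many sites with the peaks on which the word was chosen, so these shares are no separate support. Nor are the shares in the other classes, whose summits were called in the same list from the same libraries. The far intronic peaks with an outward copy had a median signal of 91.4 and those without had 79.9. Of those with a copy 62 of 124 were found in both replicates, and of those without 481 of 1020. Of the copies in peaks with 1 host gene, 60 lay on the strand of the host and 73 on the opposite strand. The inward word ACAGTGG had another spread over the classes. It stood at 9.79% of far intronic peaks, 8.11% of peaks outside genes, 11.8% of intronic peaks nearer to starts and 6.94% of promoter peaks. The reads and a control were not analysed here, so whether the words would stand in the same places relative to reads without enrichment was not tested, and the outward and inward shares describe letters beside called summits only.

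Binding strength at the far intronic sites lay below that at promoters and at intronic sites nearer to starts, and few of the strongest peaks were far intronic. Peak signal is the score that the authors' peak caller gave each peak, without unit, and it is comparable only within a list. Its median over the far intronic peaks was 81.0, with the 10th percentile at 49.8, the 90th at 195 and the highest at 1018. For comparison, the median was 92.4 for intronic peaks nearer to starts, 94.6 for promoter peaks and 74.8 for peaks outside genes. The median far intronic peak stood at percentile 46.1 of all main-arm peaks, at percentile 45.1 in replicate 1's own list and at 44.7 in replicate 2's. Promoter peaks stood at percentiles 54.2 and 54.3 in those lists. Among the 100 strongest peaks of the list 7 were far intronic and 64 were at promoters.

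Each replicate by itself returned a large part of these sites. Replicate 1's own thresholded list shared at least 1 bp with 772 of the 1144 peaks (67.5%, 64.7 to 70.2%), where the share over all main-arm peaks was 69.7%. Replicate 2's list shared sequence with 619 (54.1%, 51.2 to 57.0%), against 60.1% of all peaks. Both lists held 543 (47.5%, 44.5 to 50.4%), against 51.7% of all peaks, 229 were found in replicate 1 only, 76 in replicate 2 only and 296 in neither. Far intronic peaks made up 23.9% of replicate 1's own list (898 of 3761) and 21.4% of replicate 2's (647 of 3019), a mean of 22.7% ± 1.73 (SD, n = 2). The shares of peaks found in both replicates were 58.3% at promoters and 41.7% outside genes. A peak found in neither could still be among the replicate's unthresholded candidates: the ranked lists held 1134 of the 1144 in replicate 1 and 1128 in replicate 2.

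Replicate support followed signal closely, but the list was made from the same replicates, so signal and support are not independent measures. Of the 172 far intronic peaks above percentile 80 of the list by signal, 171 were found in both replicates. Between percentiles 40 and 60 it was 118 of 241, and under percentile 20 it was 8 of 238. All main-arm peaks of the same ranges gave 99.6%, 53.0% and 5.11%, each inside the interval of the far intronic peaks. Over the 1119 peaks in both ranked lists, replicate signals had a Spearman correlation of 0.76, and over all 4737 such peaks it was 0.79. These are descriptions across sites that were chosen for repeating between the same 2 libraries.

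**Figure D2:**
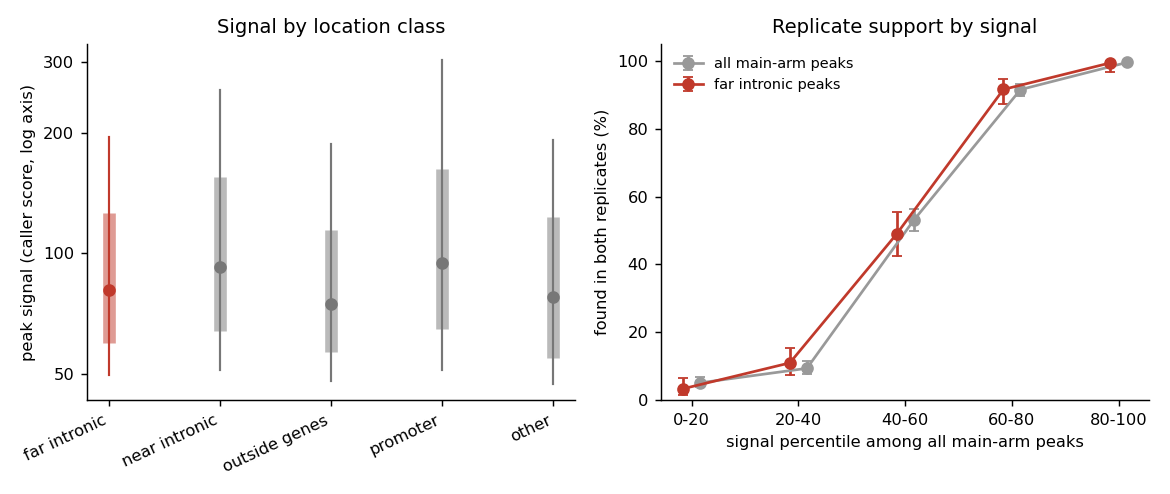
Left, peak signal (caller score, log axis) by location class, with the median as a point, the quartiles as a bar and the 10th to 90th percentiles as a line. Right, share of peaks found in both replicates' own lists by signal percentile with 95% Clopper-Pearson intervals, where far intronic peaks climb from 3.36% to 99.4% beside 5.11% to 99.6% for all peaks.

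Of the far intronic peaks, 34 shared bases with a stronger peak of the list, with summits a median of 202 bp apart. Their signals ran from 2.25 to 59.2 with a median of 10.4, and 32 of the 37 far intronic peaks with a signal under 40 were among them. Such a shoulder takes its replicate support from the same replicate peak as its stronger neighbour. Without them 1110 peaks were left, in the same number of host genes (607).

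Most sites were several kilobases from a start, yet their density fell with distance. The median distance of the summit from the nearest protein-coding start was 5844 bp, with quartiles of 3457 and 11067 bp, and 325 summits (28.4%) lay over 10 kb away. The farthest, at 76956 bp, lay in hth and was found in both replicates with a signal of 86.6. Introns and other sequence where a summit would meet the rule came to 43.2 Mb, 31.4% of the arms. This sequence held 26.5 far intronic peaks per Mb, where peaks of all classes came to 34.9 per Mb of the arms. The density was 42.8 per Mb at 2 to 3 kb from a start, 37.3 at 3 to 5 kb, 31.7 at 5 to 10 kb, 23.1 at 10 to 20 kb and 10.4 beyond 20 kb. Signal changed little along the way, with medians from 77.4 to 86.1 over these bins.

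First introns held more than their share. In the transcript that the annotation marks as canonical, 410 summits (35.8%) lay in the first intron, which made up 23.5% of the eligible sequence, and 624 (54.5%) lay in a later intron, which made up 68.8%. The densities were 40.4 and 21.0 per Mb. The other 110 summits lay in introns of other transcripts alone. By intron length, density was 18.6 per Mb in introns under 5 kb, 36.0 at 5 to 10 kb, 34.4 at 10 to 20 kb, 28.2 at 20 to 50 kb and 14.8 in introns over 50 kb. Position and length of introns go with distance from the start, and their separate parts were not tested. The gene whose start was nearest was a host gene for 827 of the peaks (72.3%).

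The limit of 2000 bp cut through a continuous range. Just inside it were peaks in hiw (2001 bp, signal 171), Dif (2002 bp, signal 323) and Pka-R2 (2006 bp, signal 43.5). Just outside were peaks in fru (1982 bp, signal 157), CG13917 (1989 bp, signal 66.4) and Mrtf (1995 bp, signal 9.31).

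**Figure D3:**
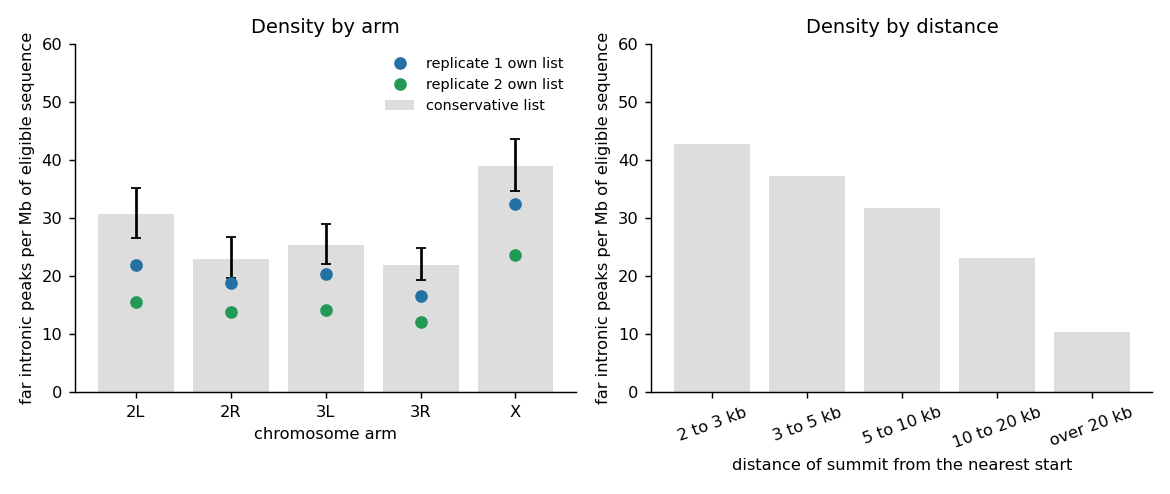
Far intronic peaks per Mb of eligible sequence by chromosome arm (left) and by distance from the nearest protein-coding start (right). Bars are the conservative list with exact Poisson 95% intervals on the left, and points are each replicate's own list. The X stands at 39.0 per Mb with no other arm above 30.7, and density falls from 42.8 to 10.4 per Mb with distance.

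The X chromosome carried the densest set of far intronic sites. It held 298 of them in 7.64 Mb of eligible sequence, 39.0 per Mb (exact Poisson interval 34.7 to 43.7, counting error only), and the 4 large autosome arms held 846 in 34.2 Mb, 24.8 per Mb (23.1 to 26.5). Among these arms 2L had 30.7 per Mb, 3L 25.4, 2R 22.96 and 3R 22.0. Both replicates alone showed this order of X over autosomes, with 32.4 against 19.0 per Mb in replicate 1 and 23.7 against 13.6 in replicate 2. Peaks of all classes were less unequal, at 39.4 per Mb of the X and 35.4 per Mb of the autosome arms, and promoter peaks came to 13.1 and 15.1 per Mb. Far intronic peaks on the X had a median signal of 89.6, against 74.1 to 86.5 on the autosome arms. Chromosome 4, whose eligible sequence was 0.451 Mb, and the Y, with 0.948 Mb, held none, where 3 peaks would have made 6.65 and 3.17 per Mb. The whole list had 6 peaks on chromosome 4 and 0 on the Y, so there the absence was not one of intronic peaks alone.

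Far intronic peaks lay in a minority of the eligible genes, which differed widely in eligible length. Of 4957 protein-coding genes with any eligible sequence, 607 (12.2%) hosted at least 1 peak, and 256 hosted several. Those 256 genes held 813 of the peaks (71.1%), 53 genes held 5 or more and 8 held 7 or more. Length went with hosting: 2.49% of genes with up to 5 kb of eligible sequence were hosts, 26.9% at 5 to 20 kb, 45.4% at 20 to 50 kb and 53.8% above 50 kb. The shortest class held 3495 of the eligible genes but only 3.04 Mb of eligible sequence. The number of hosts that an even spread of peaks would give was not computed. The density over the same classes was 32.2, 39.9, 33.1 and 14.7 peaks per Mb, highest at 5 to 20 kb and lowest in the longest genes. Neighbouring far intronic peaks stood a median of 6989 bp apart, and 490 had another within 5000 bp. The nearest peak of any class was a median of 4106 bp away, against 4360 bp over all main-arm peaks.

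The gene with the most sites was kirre, which encodes an immunoglobulin-family adhesion protein of muscle founder cells and acts in myoblast fusion. It spans chrX:2740384-3134532 on the plus strand and held 17 far intronic peaks, 13 in replicate 1's own list and 11 in replicate 2's. Signals ran from 47.1 to 340 with a median of 89.3, and 8 of the 17 peaks were found in both replicates. The strongest, at chrX:2786672-2786881, had a signal of 176 in replicate 1's ranked list and 166 in replicate 2's. It lies also in CG32795, a gene that overlaps kirre. A run of 6 peaks with signals of 89.3 to 136 lay between the summits at 3005936 and 3025700, and 5 of them were in both replicates. Upstream of it, 4 peaks in a row, from the summit at 2813269 to that at 2914334, had signals of 47.1 to 60.5 and were in neither replicate's own list.

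**Figure D4:**
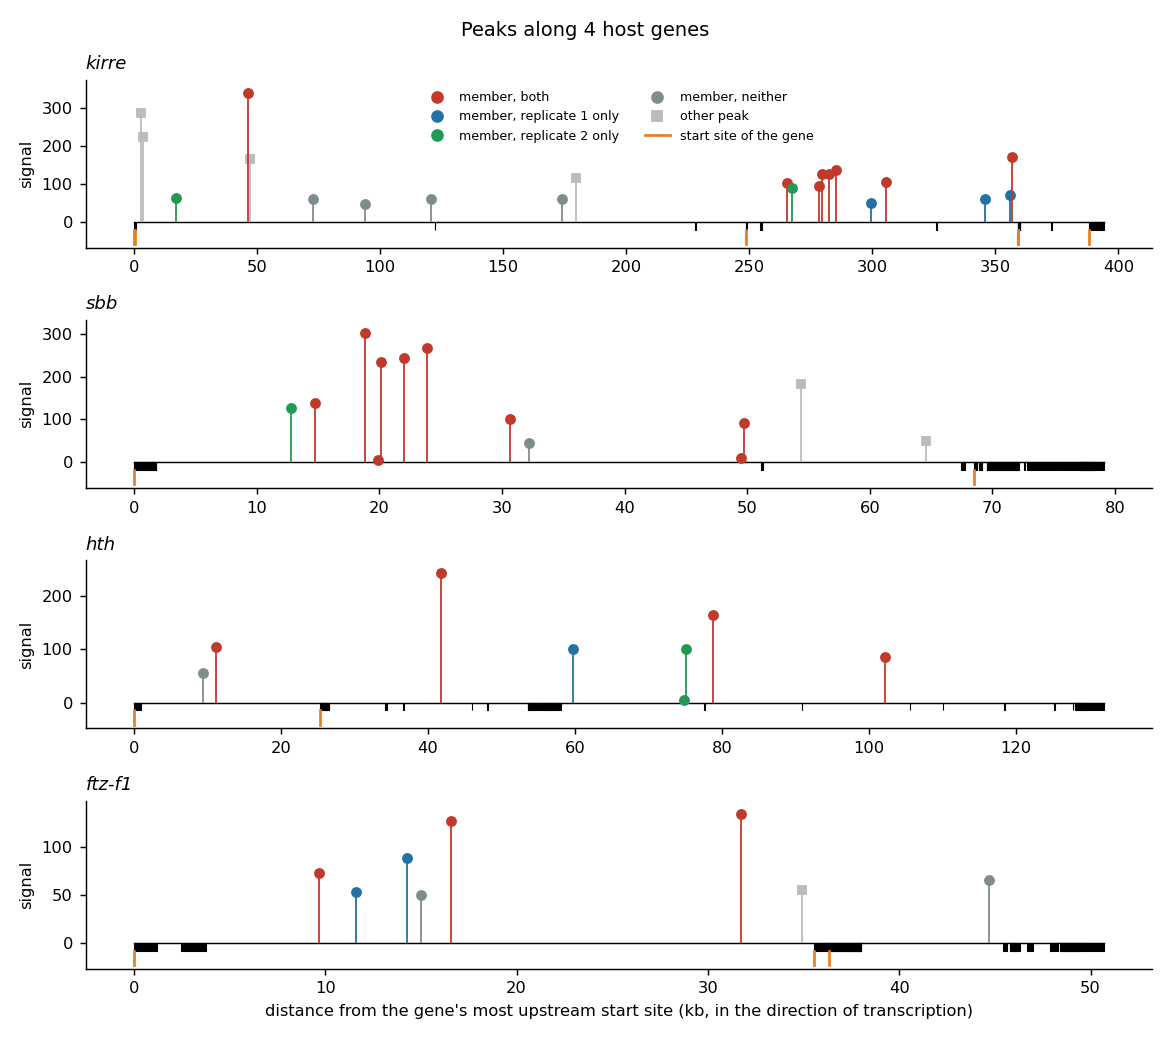
Far intronic peaks (circles, coloured by the replicates' own lists that held them) and other peaks (grey squares) along kirre, sbb, hth and ftz-f1, with signal on the vertical axis and distance from the most upstream start of the gene on the horizontal axis. Black blocks are exons and orange ticks are start sites. In sbb 7 of the 11 sites lie between 12.8 and 23.9 kb from the start, and in hth the 8 sites lie between 9.33 and 102 kb.

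sbb (scribbler), which encodes a transcriptional corepressor, held 11 far intronic peaks in 46772 bp of eligible sequence. Found in both replicates were 9 of the 11, of which 2, with signals of 10.1 and 4.83, were shoulders of a stronger neighbour, and each replicate's own list had 8. The 4 strongest had signals of 302, 267, 244 and 235. In the ranked lists these 4 had signals of 171, 145, 145 and 187 in replicate 1 and 132, 115.4, 99.9 and 42.0 in replicate 2. A promoter peak was also present at sbb.

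Raf, which encodes the kinase between Ras and MEK, held 9 sites, and each replicate's own list returned most of them (9 and 7). The strongest, 2253 bp from a start, had a signal of 590, with 360 and 231 in the ranked lists of replicates 1 and 2. The next 3 had 338, 217 and 181, and all 4 were found in both replicates. CG12535 also held 9, with signals of 49.1 to 237, 5 of them in both replicates.

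Homothorax (hth), a homeodomain cofactor of Extradenticle and the Hox proteins, held 8 sites over 92920 bp, 4 of them in both replicates. The strongest had a signal of 243, and the weakest, with 3.998, was a shoulder. The roadkill gene rdx, whose product directs ubiquitination of Cubitus interruptus in Hedgehog signalling, held 7 including 1 shoulder, of which 6 were in both replicates and the strongest had a signal of 412. beat-Ib, of the Beaten path family of immunoglobulin proteins, also held 7, but only 2 were in both replicates. Its 7 stood within 4827 bp, and 2 of them, with signals of 13.1 and 23.4, were shoulders. The nuclear receptor gene ftz-f1 held 7, with signals of 50.3 to 135 and 3 in both replicates. Its own-list counts were 6 in replicate 1 and 3 in replicate 2.

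The hosts of the strongest sites were genes of several kinds, and they were chosen by signal alone. The strongest of all, with a signal of 1018, lay 2320 bp from a start of Tlk, the gene of the Tousled-like kinase, and had 538 and 487 in the ranked lists of replicates 1 and 2. CG32486 followed with 863 (474 and 391) and CG12769 with 841 (500 and 340). osa, which encodes a subunit of the Brahma chromatin remodeller, had 2 of the 10 strongest sites. Their signals were 839 (497 and 341) and 523 (281 and 244), both in intron 4 of the canonical transcript. The next site lay in CHES-1-like, a forkhead factor gene, with 733 (425 and 325).

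Among the 20 strongest sites, 1 with a signal of 543 (312 and 236) lay in Hr3 and in 2 genes that overlap it, CG12912 and CG46321, and another with 431 (257 and 174) lay 21993 bp from a start of Hr4. Gug, the gene of the corepressor Atrophin, had 526 (341 and 188), and the histone H3 kinase gene JIL-1 had 447 (243 and 203). Psc, which encodes a Polycomb group protein, had 399 (238 and 165) and upSET, which encodes a SET domain protein, 406 (259 and 149). Signalling genes in the same range were Btk, a tyrosine kinase, with 431 (266 and 170) and aos, a secreted inhibitor of the EGF receptor, with 429 (245 and 192), at a site that also lies in CG33158. The rest of the 20 lay in Raf and rdx, described above, in CG13894 (446), Eip63E (433) and CG34417 (429), and in eff, a ubiquitin-conjugating enzyme gene, with 421. All of the 20 strongest far intronic peaks were found in both replicates' own lists.

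The gene lists differed in how densely their introns were bound. The lists, like the sites, were drawn up with earlier results of these data known, so their values are given as counts with exact Poisson intervals beside the density of all eligible genes, 26.5 per Mb. Because short and long genes differ in density, the density that all eligible genes would give at the list's own gene lengths is given too. Signalling ligands, receptors and transducers had the highest density of any list with at least 10 peaks: 22 of 55 eligible genes were hosts, with 55 peaks and 61.3 per Mb (46.2 to 79.8) against 29.3 at their lengths. Examples are the Wnt receptor gene fz with 6 sites up to a signal of 228, the Notch coactivator gene mam with 5 up to 340 and the growth factor gene Pvf3 with 5 up to 134. Each replicate's own list gave 46.8 and 26.8 per Mb for this list, where all genes gave 20.8 and 14.97.

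The 4 lists with transcription factor genes differed in density, and those of homeobox and of zinc finger genes lay near the density of all genes. Those of the bHLH, forkhead, Sox, T-box, Ets and Runt families had 27 peaks in 12 of 43 eligible genes, 54.6 per Mb (36.0 to 79.4) against 33.4 at their lengths. CHES-1-like held 6 of the 27 in 7877 bp of eligible sequence, up to a signal of 733. The Ets gene pnt held 5, up to a signal of 114, and its relative aop 3, up to 159. Genes of the ecdysone response and nuclear receptors had 32 peaks in 10 of 21 eligible genes, 50.4 per Mb (34.5 to 71.1) against 24.1. Here ftz-f1, Hr4 and Eip63E, an ecdysone-induced kinase gene with 5 sites, held 18 of the 32, and br and Eip78C held none in 53553 and 25835 bp of eligible sequence. Homeobox genes had 33.9 per Mb (23.2 to 47.9) against 29.3, in 12 of 62 genes, and zinc finger and BTB factor genes 31.9 (21.8 to 45.0) against 24.1, in 17 of 45. Both intervals held the 26.5 per Mb of all eligible genes and the density at the list's lengths. Among homeobox genes Antp held 5 and ct 4 sites, while pb and nub held none.

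Adhesion genes were bound about as densely as other genes of their length, muscle genes more densely through kirre, and ion channel and synaptic genes less densely. Axon guidance and cell adhesion genes had the most peaks, 82 in 22 of 90 eligible genes, but in 3.46 Mb, which gave 23.7 per Mb (18.9 to 29.4) against 22.8 at their lengths. After kirre and beat-Ib came Nrg, the neuroglian gene, with 6 sites up to a signal of 158, while dpr8 and the receptor phosphatase gene Lar held none in 128314 and 123492 bp. Ion channel and synaptic genes had the lowest density of the lists with at least 10 eligible genes, 12 peaks in 9 of 62 genes and 7.96 per Mb (4.11 to 13.9) against 25.2 at their lengths, and both replicates' own lists gave 5.30 per Mb. The synaptic vesicle fusion gene Snap25, at chr3L:24074180-24299205, held none in 220877 bp of the list's 1.51 Mb of eligible sequence. How well reads can be placed there was not tested. Muscle and sarcomere genes had 47.8 per Mb (30.3 to 71.7) against 22.7, with 17 of their 23 peaks in kirre, which stands in 2 lists, and 4 in rols, another myoblast fusion gene.

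The other lists were mixed. Cyclic nucleotide, calcium and kinase signalling genes had 37.9 per Mb (25.6 to 54.1) against 24.9, with 6 sites in the kinase gene msn and 5 in puc, a phosphatase gene of the JNK pathway. Cytoskeleton and cell shape genes had 36.0 (22.0 to 55.5) against 33.0, and RNA-binding regulators 16.1 (10.3 to 23.9) against 17.1 at their lengths, below the 26.5 of all genes, with none in 259911 bp of bru3. Tracheal and epithelial genes had 7 peaks and glial genes 5, all of the latter in pnt, and their densities of 38.8 (15.6 to 80.02) and 75.7 per Mb (24.6 to 177) have wide intervals. Ribosomal protein genes, cytosolic and mitochondrial, had eligible sequence in 4 and 2 genes and held none. That sequence came to only 0.000245 and 0.00363 Mb, too little for the absence to tell anything about binding.

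**Figure D5:**
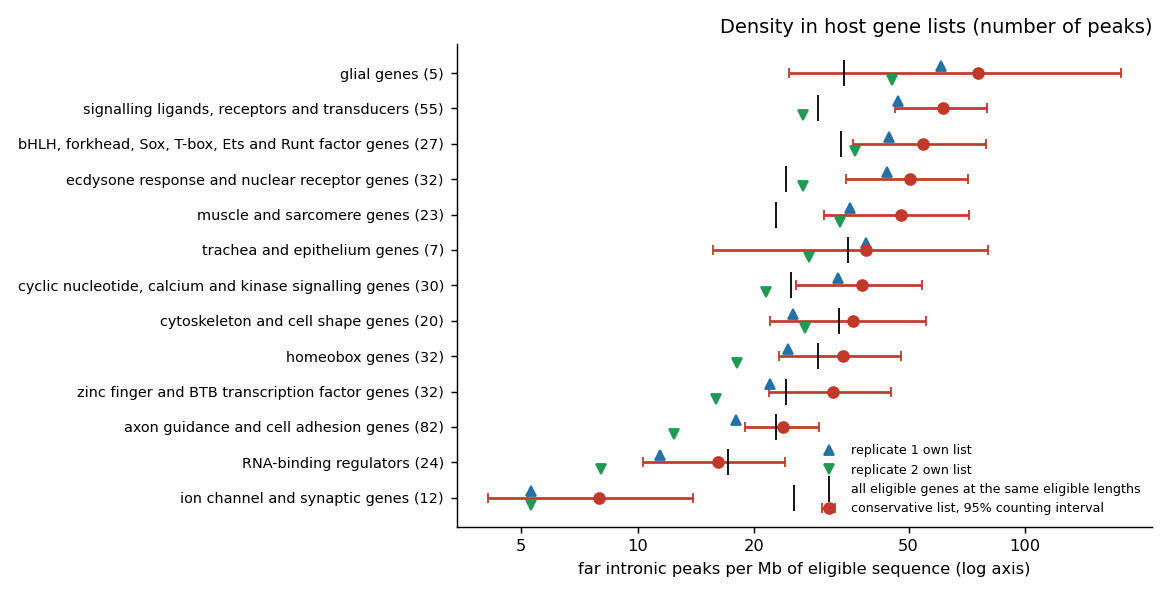
Far intronic peaks per Mb of eligible sequence (log axis) for each list of at least 10 eligible genes, with the number of peaks in brackets. Red points carry exact Poisson 95% intervals, triangles are the replicates' own lists and black ticks the density of all eligible genes at the same lengths. Signalling genes stand at 61.3 per Mb and ion channel and synaptic genes at 7.96.

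Host genes often had a promoter peak too, but most did not. Of the 607 hosts, 193 (31.8%, 28.1 to 35.7%) had a peak within 500 bp of a start, against 917 of the 4350 eligible genes that were no host (21.1%). Hosts were longer, with a median of 18970 bp of eligible sequence against 931 bp over all eligible genes, and the part of gene length and of the number of start sites in this difference was not tested. Of the 8 genes with 7 or more sites, sbb and rdx had a promoter peak.

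Sites at exons and starts of noncoding genes were few, and so was the eligible sequence there. The summit of 12 far intronic peaks (1.05%, 0.543 to 1.83%) lay in an exon of a noncoding gene. Such exons made up 0.847% of the eligible sequence and held 32.8 per Mb. Within 500 bp of the start of a noncoding gene lay 21 summits (1.84%, 1.14 to 2.79%). That sequence made up 1.17% of the eligible sequence and held 41.5 per Mb, where all eligible sequence held 26.5. The strongest of these sites was the osa site with a signal of 839, in an exon of the long noncoding RNA gene lncRNA:CR46035. Annotated transposable elements made up 7.69% of the eligible sequence and held 3 summits (0.262%, 0.0541 to 0.764%), in CG33298, kibra and Neu2. Reads from repeats are hard to place, and how the authors treated them is not given in the sources used here.

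Of the 13 listed motifs of known factors, those of housekeeping promoters separated far intronic from promoter peaks most. GAGAG, the core bound by GAGA factor, stood in 22.6% of the member windows (20.2 to 25.2%), in 21.5% of tiles and in 20.5% of promoter peaks. CAGGTAG, bound by Zelda, stood in 1.57% (0.935 to 2.48%), against 0.874% of tiles. TGANTCA, bound by AP-1, stood in 6.29% (4.96 to 7.86%) against 4.13% of tiles, and TAATTA, the core of many homeodomain sites, in 17.2% (15.1 to 19.5%) against 14.1%. TATCGATA, the DRE of housekeeping promoters, was the clearest case: 0.350% of far intronic peaks (0.0953 to 0.893%) held it, 0.439% of tiles and 6.38% of promoter peaks (5.34 to 7.56%). GGTCACAC, a core promoter motif, was likewise in 0.437% of far intronic and 2.86% of promoter peaks. CAGCTG, an E-box, was in 5.68% (4.41 to 7.18%) of far intronic peaks, 7.11% of tiles and 11.5% of promoter peaks. GATAAG, the GATA motif, was in 9.88% (8.21 to 11.8%) against 7.999% of tiles, CATATG, an E-box of Twist, in 7.34% (5.90 to 9.01%) against 5.91%, and TTCNNNGAA, bound by Stat92E, in 7.34% against 6.32%. GCCATNTT, bound by Pho, was in 3.32% (2.36 to 4.53%) against 4.64%, the repeat CACACACA in 3.06% (2.14 to 4.23%) against 5.13%, and AACCGGTT, bound by Grainy head, in 0.262% against 0.189%. Peaks of all classes differed less from the far intronic peaks than tiles did for several of these motifs. All main-arm peaks held TAATTA in 17.6%, GATAAG in 9.92%, CATATG in 6.73% and TGANTCA in 5.13%. They held GCCATNTT in 3.29% and CACACACA in 3.09%. Each of these shares lies inside the interval of the far intronic peaks. For TTCNNNGAA the share of all peaks was 5.61%. The tiles were richer in GC, and its part in the differences was not tested. Motifs were read on both strands of the windows of 100 bp on each side, and a match is a run of letters, not a measured binding site.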

How the data were processed

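ChIP-seq peak lists of 2 biological replicates were analysed, on dm6 per the file headers and labels. The deposited signal and the deposited IDR score of each peak (830 to 1000 in the conservative list, where IDR is the irreproducible discovery rate) were made by the authors. Signal was used only within a list. No source used here names the aligner or the peak caller (not given in the sources used here), and read depth is unknown. Start, end and summit are the authors' positions, given 1-based. Genes came from Ensembl release 115 and sequence from NCBI Release 6, and 1 peak off the 7 arms was left out. Each replicate's support was taken from its own lists, with 1 bp shared. Eligible sequence is where a summit would meet the rule. Intervals cover counting error only, and with 1 group no test was made. Of the 15 gene lists, 4 symbols were not matched. Of the 13 motifs, the share is that of windows of 100 bp each side, beside 200318 tiled windows, and 7-letter words needed 30 member windows to be ranked. The members, gene lists and motifs were chosen with earlier results of these data known, and the words CAGTG and CTCAGTG after these sequences were seen. Named genes are a selection from the hosts of the 20 strongest peaks, the 10 genes with the most peaks, up to 3 hosts and 2 others per list, and the 3 peaks on each side of the 2000 bp limit. Sequences are shown for the strongest peaks found in both replicates and not on 2R and, by signal, for peaks with outward CTCAGTG on both sides. Location classes, overlaps and word positions were tested on simulated data. The work was done in Python 3.11.15 with scipy 1.17.1 for intervals, pandas 2.3.3 and numpy 2.4.6 for tables and matplotlib 3.10.9 for plots.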

Additional observations from a re-analysis of the deposited data

How the results depend on the processing

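The alternatives were the other thresholded list, each replicate alone, the stronger peaks, other limits of distance, noncoding starts or exons, whole peaks and single hosts, and, chosen after seeing the data, leaving out peaks that share bases with a stronger peak. The number of far intronic peaks was 647 to 898 in the replicates alone, 522 among peaks above the median signal, 666 at over 5000 bp from a start, 1541 at over 1000 bp and 1241 in the other list. Their share of main-arm peaks was 21.4 to 23.9% in the replicates alone, 21.8% among stronger peaks, 32.1% at over 1000 bp and 13.9% at over 5000 bp. The share found in both replicates was 43.5% in the other list, 88.1% among stronger peaks and 97.8% in the ranked lists. Host genes numbered 424 to 517 in the replicates alone, 360 among stronger peaks and 364 at over 5000 bp, and those with several peaks 134 to 209, 107 and 155, while at over 1000 bp they came to 823 and 351. Peaks per Mb came to 14.97 to 20.8 in the replicates alone and 12.1 among stronger peaks. The median signal percentile moved between 43.4 and 47.6: it was 44.3 in the other list, 44.7 to 45.1 in the replicates alone, 43.4 among stronger peaks, 47.5 at over 1000 bp, 44.3 at over 5000 bp, 45.7 with noncoding starts, 47.0 for whole peaks and 47.6 without shoulders. CTCAGTG stood in 2.27% of windows of 50 bp each side (tiles 0.870%), 14.9% of windows of 200 bp each side (tiles 3.56%), 13.03% of stronger peaks and 10.9 to 11.4% in the replicates alone. The cause of these changes was not tested beyond the smaller lists and other windows themselves. The number of peaks, with read depth unknown, limits the precision. No paired analysis was possible because the study has 1 group.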
